A study of Mus musculus with 2 samples.

Results

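Glutathione transferases join the tripeptide glutathione to reactive or foreign molecules, which makes these easier to export from the cell. The cytosolic enzymes fall into classes named by Greek letters (pi, mu, alpha, omega, theta), each encoded by its own gene or gene group, while a kappa enzyme sits in mitochondria and peroxisomes and a separate family is embedded in membranes. Many of the genes are known to respond to electrophiles through the transcription factor NRF2, and the human GSTP1 promoter is a well known site of DNA methylation in prostate cancer.

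Here 10 such genes, chosen by name, were followed on Illumina bead arrays of cultured mouse embryonic fibroblasts: Gstp1, Gstp2, Gsta4, Gstm1, Gstm2, Gstm5, Gsto1, Gstt1, Gstk1 and Mgst1. All probes carrying 1 of these symbols were taken, which gave 16 probes for 10 genes of the 16593 genes on the array. The genes were picked with their values on these arrays already known, so every difference below is a description and none was tested. The control line was p53-/-, the other was Dnmt1-/- (p53-/-), both on a C57BL background. Both lines thus lacked p53 (Trp53), a factor that restrains growth after DNA damage, and the second also lacked Dnmt1, which copies DNA methylation onto newly made DNA. Each genotype had 1 array, so there is no replicate spread and precision is limited by the number of arrays, and any feature of either line beyond its genotype cannot be told apart from the genotype. The labels do not say from how many embryos or clones each line came.

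The median probe signal was 151 intensity units on the control and 130 on the Dnmt1-null array, and detection meant a deposited detection p-value below 0.01. Each difference was taken as Dnmt1-null minus control in log2 units after background correction and quantile normalization, so that 1 log2 is 2-fold and a positive value is higher without Dnmt1. Detected genes had a median difference of -0.04 log2. The robust SD quoted beside a gene is that of the differences of the 500 detected genes nearest to it in mean level, and it describes scatter among genes, not between replicates. Dnmt1 itself had a signal of 1715 on the control and 439 on the Dnmt1-null array and was 4.54-fold lower, still detected. The position of its probe against the deleted stretch was not looked up, so this value may not check the label. All 10 fibroblast markers on the array were detected on both arrays, while 0 of 6 hepatocyte markers (among them Alb and Ttr) were detected on either. Their summed signals were 44408.5 and 39289 units for the fibroblast list and 796 and 719 units for the hepatocyte list, control first. Such sums, here and below, are of deposited signals over all list genes on the array, detected or not. They include background, which makes up the share of undetected genes. Of the fibroblast markers 8 were lower and 2 higher, with a median of -0.49 log2, and past 2-fold lay Dcn, the proteoglycan decorin, at 3.58-fold lower (704 to 253 units) and S100a4, a calcium-binding protein, at 3.98-fold higher (601 to 1922 units). Of 7 epithelial markers 0 were detected in the control and 2 in the Dnmt1-null line, with summed signals of 1054 and 1277 units. Of these Krt14, a keratin of basal epithelium, went from an undetected 138 to 502 units. It was at least 8.74-fold higher, a bound that holds for the background correction used here only. Of 4 haematopoietic markers 2 were detected on both arrays, with summed signals of 704 and 799 units for the list. These were Cd14, which went from 229 to 327 units and was 2.23-fold higher, and Cd34, from 206 to 246 units and 1.83-fold higher. Both folds are after background correction of dim signals, with robust SDs of 0.43 log2 for Cd14 and 0.49 log2 for Cd34. Ptprc, which defines blood cells, was detected on neither array. Of 6 endothelial markers, with 874 and 1345 units, 1 was detected. This was Eng, the endoglin gene, which went from 196 to 766 units and was 9.37-fold higher, while Pecam1 and Cdh5 were not detected. The control level of Eng, 6.18 log2, lay near the lowest level of a detected probe there, 5.57 log2. The size of its fold is therefore uncertain. The part of these markers in the results was not tested, and in bulk RNA a change in the share of cells and a change in RNA per cell cannot be told apart.

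The promoters of 2 gene pairs are shown because each pair comes from 1 gene cluster and its members differed in the data: Gstp1 with Gstp2, adjacent pi genes that were both higher in the Dnmt1-null line by very different amounts, and Gstm2 with Gstm5, mu genes of 1 cluster whose differences had opposite signs. Each line gives the 250 bases before the annotated start, 5′ to 3′ on the strand of the gene, from RefSeq on build GRCm38.p6, and capitals mark CpG dinucleotides, the sites at which Dnmt1 copies methylation. The windows are chr19:4037913-4038162 (minus strand) for Gstp1, chr19:4042222-4042471 (minus strand) for Gstp2, chr3:107986421-107986670 (minus strand) for Gstm2 and chr3:107895604-107895853 (plus strand) for Gstm5.
Gstp1: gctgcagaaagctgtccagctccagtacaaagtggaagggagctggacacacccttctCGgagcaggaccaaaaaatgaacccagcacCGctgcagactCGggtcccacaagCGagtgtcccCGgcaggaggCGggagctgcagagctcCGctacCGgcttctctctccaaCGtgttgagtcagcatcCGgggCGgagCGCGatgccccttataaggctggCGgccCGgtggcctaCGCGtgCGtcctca
Gstp2: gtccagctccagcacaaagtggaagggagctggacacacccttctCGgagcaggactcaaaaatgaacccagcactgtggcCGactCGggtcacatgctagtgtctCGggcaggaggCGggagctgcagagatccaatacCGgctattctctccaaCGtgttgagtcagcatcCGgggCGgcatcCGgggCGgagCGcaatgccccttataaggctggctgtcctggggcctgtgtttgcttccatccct
Gstm2: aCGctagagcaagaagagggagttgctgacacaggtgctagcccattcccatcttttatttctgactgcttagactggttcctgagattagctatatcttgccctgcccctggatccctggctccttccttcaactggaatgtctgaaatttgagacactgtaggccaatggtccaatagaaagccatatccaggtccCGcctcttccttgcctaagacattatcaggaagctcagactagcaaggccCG
Gstm5: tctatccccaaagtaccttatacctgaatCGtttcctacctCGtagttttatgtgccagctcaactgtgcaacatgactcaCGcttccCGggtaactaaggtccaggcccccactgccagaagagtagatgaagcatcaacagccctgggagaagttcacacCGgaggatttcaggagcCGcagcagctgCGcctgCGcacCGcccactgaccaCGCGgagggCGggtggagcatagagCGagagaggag
In these stretches Gstp1 had 18 CpG, Gstp2 12, Gstm2 3 and Gstm5 13. Methylation of these bases was not measured on the arrays.

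Of the 10 genes, all were detected on at least 1 array and 9 on both. In the Dnmt1-null line 4 were higher by 2-fold or more (Gstp2, Gstm2, Gstp1 and Gstk1), 0 were lower by 2-fold or more, and 6 lay in between. Among all 7727 detected genes the same rule counted 5.55% as higher and 4.59% as lower, or 4.50% and 3.71% with undetected signals set to their bound. Because the genes were chosen with these values known, nothing is read from the difference between those shares. The median of the 10 differences was 0.48 log2, with a range from -0.78 log2 in Gstm5 to 4.08 log2 in Gstp2, and 7 of the 10 were above 0. The 2-fold line fell between Gstk1 (1.02 log2), just past it, and Gstm5 (-0.78 log2), the nearest gene within it.

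**Figure D1:**
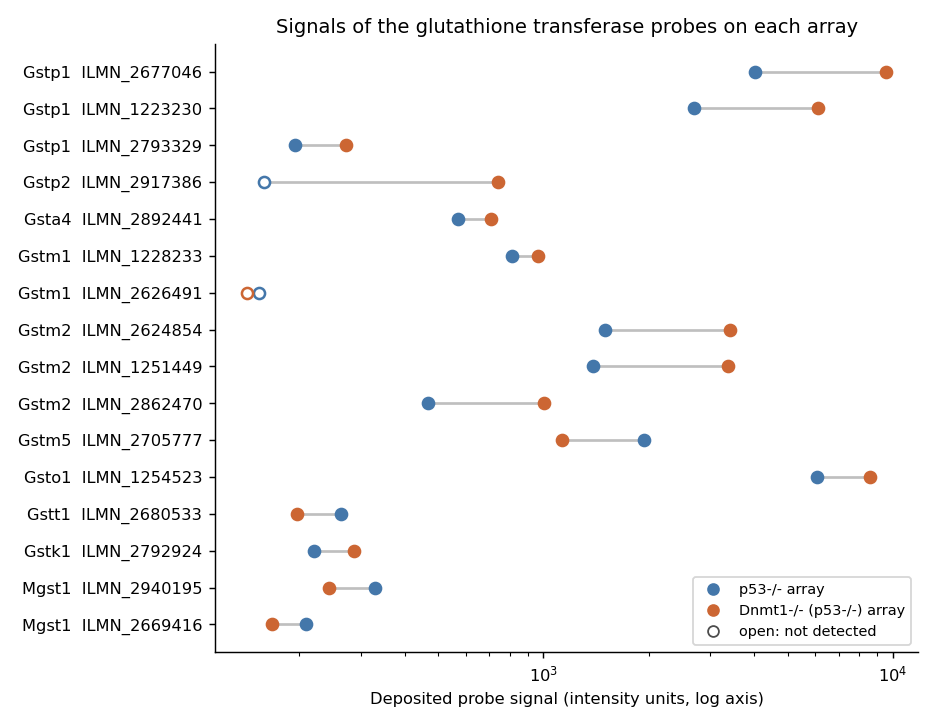
Deposited signal of each of the 16 probes on the control (blue) and the Dnmt1-null array (orange), 1 value per array, on a log axis in intensity units; open circles are signals not detected. The single Gstp2 probe goes from an undetected 159 to 739 units, all 3 probes of Gstp1 and of Gstm2 are brighter on the Dnmt1-null array, and the Gstm5 probe is dimmer.

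The pi class carried the largest difference. Gstp2 encodes a pi enzyme closely similar to Gstp1. Its 1 probe had a signal of 159 on the control array, with a detection p-value of 0.053 that did not reach the threshold, and of 739 on the Dnmt1-null array. On the normalized scale it went from 5.28 to 9.35 log2. Against the lowest normalized level of a detected probe on the control array, 5.57 log2, it was at least 13.8-fold higher. Such a bound holds for the main background correction only, and the unprocessed signals differed by 4.65-fold. The measured difference of 4.08 log2 starts from an undetected signal, so its size is uncertain. Across the other settings it ran from 2.25 log2 without background correction to 4.77 log2 with the authors' processed values, and it was past 2-fold in all 10.

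Gstp1, the main pi enzyme of most mouse tissues and a detoxifier of electrophiles, was measured by 3 probes and was detected with each of them on both arrays. The brightest went from 4042 to 9601 units, the next from 2695 to 6099.7 and the dimmest from 194 to 271. After background correction and normalization these were differences of 1.21, 1.17 and 1.32 log2, so the probes lay within 0.16 log2 of each other. The deposited signals of the dimmest probe, 194 and 271 units, differed less in proportion than those of the brighter probes. Its closeness to them thus rests on the background correction, and it was not followed on its own under the other settings. The brightest probe stood for the gene, at 2.31-fold higher with a robust SD of 0.25 log2 at its level. Under the other settings the difference of Gstp1 stayed between 1.18 and 1.25 log2. Gstp1 was therefore already well detected in the control line, whereas Gstp2 crossed from undetected to detected. Gstp3, the remaining pi gene of the cluster, was detected on neither array at 145 and 141 units. The sequences of Gstp1 and Gstp2 are close enough for a probe of one to bind RNA of the other. Probe sequences were not used here, so how far each signal belongs to its named gene was not tested.

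The mu class went both ways. Gstm2 encodes a mu enzyme whose human counterpart is known from muscle. Its 3 probes went from 1503 to 3422, from 1389.7 to 3386 and from 467 to 1004 units. These were differences of 1.26, 1.37 and 1.45 log2, and the gene, by its brightest probe, was 2.39-fold higher with a robust SD of 0.33 log2. Gstm5, which in the mouse is known from brain and testis, had 1 probe that went from 1934.5 to 1129 units. It was 1.72-fold lower, a difference of -0.78 log2 against a robust SD of 0.34 log2, and it stayed between -0.86 and -0.71 log2 under every setting run. Gstm1, the major mu enzyme of mouse liver, had a detected probe that went from 813 to 963 units, a difference of 0.38 log2 that was close to its robust SD of 0.36 log2. The second Gstm1 probe was detected on neither array, at 153 and 142 units. Mu genes are also alike in sequence, so the same caution on probes holds for them.

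Of the remaining cytosolic enzymes, none reached 2-fold. Gsta4, an alpha enzyme that conjugates the lipid peroxidation product 4-hydroxynonenal, went from 571 to 706 units and differed by 0.51 log2 with a robust SD of 0.33 log2. Gsto1, an omega enzyme that can reduce dehydroascorbate and methylated arsenic, went from 6055 to 8607 units. Its difference of 0.45 log2 lay 1.97 times its robust SD of 0.23 log2 from 0. Gstt1, a theta enzyme that acts on small halogenated compounds, was dimmer, at 262 and 197 units, and differed by -0.47 log2, the same size as its robust SD of 0.47 log2.

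Outside the cytosol, Gstk1, the kappa enzyme of mitochondria and peroxisomes, went from 220.03 to 287 units. Its difference of 1.02 log2, or 2.02-fold, only just passed the 2-fold line, with a robust SD of 0.48 log2. The raw signals differed by 1.31-fold, and Gstk1 fell short of 2-fold under 4 of 10 other settings, at its lowest 0.52 log2 without background correction. Mgst1, a membrane enzyme of the endoplasmic reticulum and outer mitochondrial membrane with transferase and peroxidase activity, was dimmer with both of its probes. The brighter went from 330.2 to 243 units and the dimmer from 208 to 167. These were differences of -0.44 and -0.33 log2, beside a robust SD of 0.41 log2 for the brighter.

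**Figure D2:**
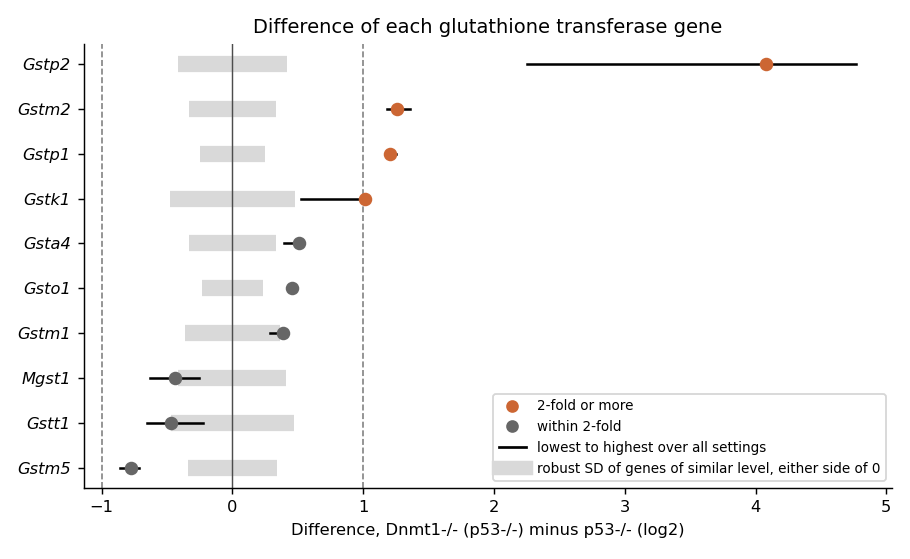
Difference of each of the 10 genes (Dnmt1-null minus control, log2; points, orange at 2-fold or more), with the lowest and highest value over the main and 10 other settings (black lines) and the robust SD of genes of similar level drawn on both sides of 0 (grey). Gstp2, Gstm2 and Gstp1 stay past 2-fold throughout, Gstk1 crosses the line, and Gstm5, Gstt1 and Mgst1 stay below 0.

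The position of the genes on the chromosomes was read from the RefSeq gene order. The pi genes lie side by side on chromosome 19 in the order Gstp1, Gstp2 and Gstp3. On 1 side Ndufv1, Doc2g and Nudt8 follow, and on the other Cabp2, Cdk2ap2 and Pitpnm1. The nearest detected neighbours differed by -0.05 log2 (Ndufv1) and 0.79 log2 (Cdk2ap2), and Nudt8 by 0.68 log2. Doc2g and Cabp2 were not detected, and Pitpnm1 had 0 probes under its name. Of the 5 flanking genes on the array none reached 2-fold, beside the 5.55% higher and 4.59% lower among all detected genes. With so few genes nothing is read from this count. The mu genes lie together on chromosome 3 in the order Gstm5, Gstm7, Gstm6, Gstm3, Gstm2, Gstm1 and Gstm4. Within this row Gstm5 (-0.78 log2) and Gstm4 (-0.45 log2) at the ends were lower. Gstm2 (1.26 log2) and Gstm1 (0.38 log2) were higher, and Gstm6 and Gstm3 were detected on neither array. The difference of Gstm4 was smaller than its robust SD of 0.54 log2. That of Gstm1 was close to its robust SD of 0.36 log2, so no layout along the row is read from these values. Gstm7 had 0 probes under its name. Among the genes of the row and the flanking genes that had a probe, Gstm2 alone was past 2-fold. The shares of all detected genes past it are those given for the pi genes, and nothing is read from this count either.

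**Figure D3:**
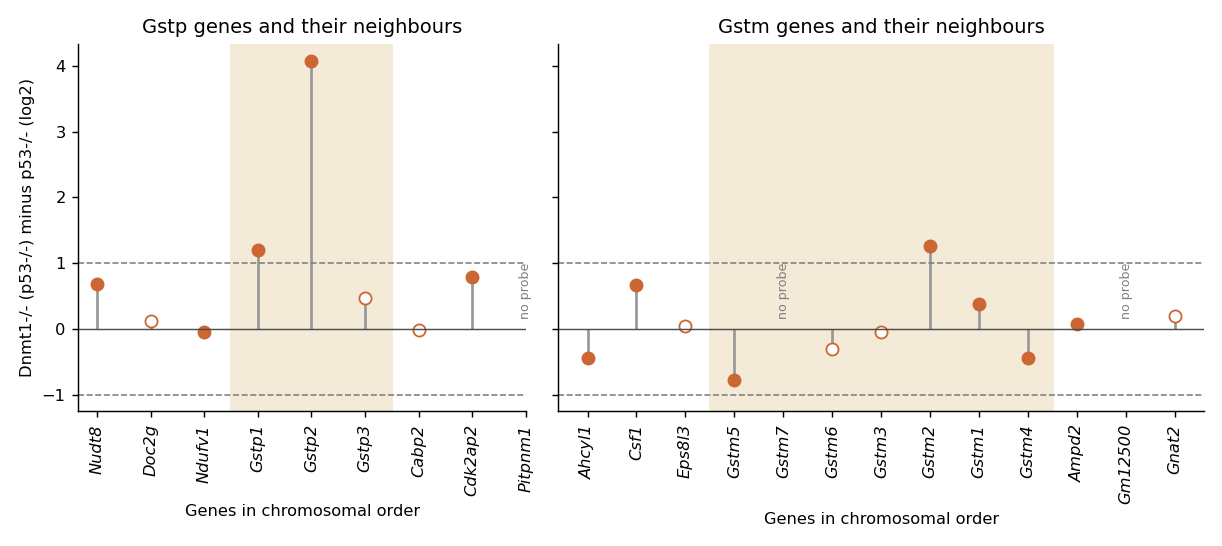
Difference (Dnmt1-null minus control, log2) of the pi genes and the mu genes, shaded, and of 3 protein-coding genes on each side, in chromosomal order; open circles are genes detected on neither array. The pi genes reach 4.08 log2 at Gstp2, while the mu genes run from -0.78 log2 at Gstm5 to 1.26 log2 at Gstm2.

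Promoter windows from 250 bases before to 50 bases after the start were available for 9 of the 10 genes, with 2 windows each for Gstm1 and Mgst1. The median of all 32851 windows in the table was 7 CpG, with quartiles of 3 and 20. Among the 4 genes past 2-fold the windows held 20 CpG in Gstp1, 12 in Gstp2, 13 in Gstk1 and 3 in Gstm2. Those of the others held 18 in Gstm5, 16 in Gsto1, 8 in Gstt1, 14 and 8 in Gstm1, and 13 and 1 in Mgst1. The ranges, 3 to 20 in the first set and 1 to 18 in the second, overlapped. Across the windows of Gstp1 and Gstp2, 76.4% of aligned positions were identical, against 48.3% for Gstp1 with Gstp3. The mu windows of Gstm2 and Gstm5 were identical at 46.6%.

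Both pi promoters share the run below, which starts 88 bases before the start of Gstp1 and 103 bases before that of Gstp2, and it is shown because it holds a 10-letter motif in both. Capitals mark TGAGTCAGCA, which is the binding motif of AP-1 factors (TGAGTCA) with the letters GCA that follow it in both promoters. Which factors bind these letters was not tested.
Gstp1 and Gstp2: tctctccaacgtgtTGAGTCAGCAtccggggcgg
The motif was chosen after the sequences were seen. On either strand TGAGTCAGCA was found in 45 of the 32851 windows (0.137%), and the shorter TGAGTCA, which lies within it, in 5.20%. Among the 11 windows of the 10 genes, TGAGTCA also occurred in that of Gstm5. The core letters of the antioxidant response element, to which NRF2 binds, were searched as TGACNNNGC. They were found in 12.4% of all windows, and among the 11 in that of Gstm5 and in 1 of Mgst1. The search asked for C after TGA, so TGAGTCAGCA, with G there, could not be counted. Nothing about NRF2 at the pi promoters is read from it. A match describes the letters only.

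**Figure D4:**
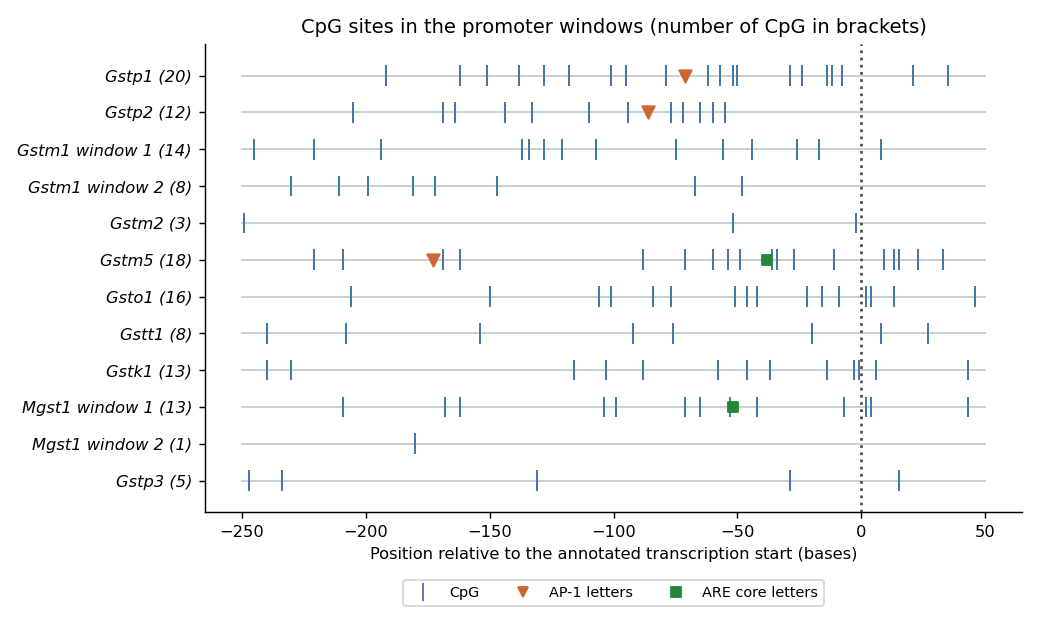
Positions of CpG (blue ticks), TGAGTCA (orange triangles) and TGACNNNGC (green squares) in the promoter windows of 9 of the genes and of Gstp3, in bases from the annotated start; the number of CpG stands in brackets. Gstp1 and Gstp2 carry the AP-1 letters at similar places, and the Gstm2 window holds 3 CpG.

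Of 21 other glutathione transferases and relatives, 19 had a probe and 11 were detected. The 2-fold rule counted 4 of these as higher, 0 as lower and 7 in between, beside the 5.55% of all detected genes that were higher. With undetected signals set to their bound 2 were higher, beside 4.50% of all detected genes. Without background correction 1 was higher, and nothing is read from these counts. Mgst2, a membrane enzyme that can also make leukotriene C4, went from 200.3 to 605 units and was 6.79-fold higher, a difference of 2.76 log2, or 1.67 log2 without background correction. Gsta1, an alpha enzyme, was not detected in the control at 141 units and was at least 2.06-fold higher at 196 units under the main correction, and 0.62 log2 higher, short of 2-fold, without background correction. The alpha gene Gsta2 and Alox5ap, which presents arachidonic acid to 5-lipoxygenase, likewise had signals above the threshold on the Dnmt1-null array only, and their bounds of at least 1.46-fold and at least 1.36-fold lay under 2-fold. Mgst3 (-0.41 log2) and Gstz1 (-0.35 log2), which acts in tyrosine breakdown, had the highest mean levels of the list and lay within 2-fold. The list median was 0.29 log2, and -0.04 log2 over all 19 genes when detection was not required.

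The genes that make glutathione lay within 2-fold, as did 6943 of all 7727 detected genes. All 5 were detected, with a median of 0.58 log2, or 0.41 log2 without background correction. Of these Gclc passed the detection filter through the Dnmt1-null array alone. Gclm, the modifier subunit of the rate-limiting ligase, differed by 0.58 log2 and Gclc, its catalytic subunit, by 0.27 log2. Slc7a11 and Slc3a2, the chains of the cystine importer, differed by 0.69 and 0.78 log2. Gss, which adds the last amino acid, differed by -0.21 log2.

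The array held 12 genes of glutathione reduction and the peroxidases, with 9 detected, 2 lower by 2-fold or more and 0 higher, beside 4.59% of all detected genes that were lower. Gpx3, the secreted peroxidase, went from 365 units to an undetected 136 and was at least 4.65-fold lower under the main correction. Its difference was -1.16 log2 without background correction. Gpx7, a peroxidase of the endoplasmic reticulum, went from 538 to 243 units and was 2.73-fold lower. Without background correction it differed by -0.95 log2, short of 2-fold. Gpx1, the main cytosolic peroxidase, differed by 0.14 log2 and the mitochondrial glutaredoxin Glrx5 by 0.13 log2. The list median was 0.04 log2 and turned negative under 4 settings, namely median scaling (-0.06 log2), the authors' processed values (-0.06 log2), no filter on dim probes (-0.01 log2) and averaging a gene's probes (-0.11 log2).

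For the export and breakdown of conjugates 15 genes had a probe and 7 were detected, with 2 higher by 2-fold or more and 0 lower, beside the 5.55% and 4.59% of all detected genes. Of the 7, Dpep1, Ggt6 and Anpep passed the detection filter through the Dnmt1-null array alone. The list median was 0.61 log2, 0.20 log2 without background correction, and 0.12 log2 over all 15 genes when detection was not required. Dpep1, a membrane dipeptidase that cleaves cysteinyl-glycine, went from an undetected 148 to 333 units and was at least 5.09-fold higher under the main correction. Its difference was 1.26 log2 without background correction. Ggt7, of the gamma-glutamyltransferase family, went from 229 to 496 units and was 3.90-fold higher, a difference of 1.96 log2, or 1.21 log2 without background correction. Chac1, which degrades glutathione in the cytosol, differed by 0.35 log2 and the aminoacylase Acy1 by 0.11 log2.

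Among 11 regulators and targets of NRF2, 10 were detected, with 2 higher by 2-fold or more and 0 lower, beside the 5.55% and 4.59% of all detected genes, and a median of 0.23 log2. Under 5 of 10 other settings 1 was higher in place of 2. Nqo1, a quinone reductase with 2 probes, went from 312 to 736 units by its brighter probe, a difference of 1.83 log2. With the mean of both probes the difference was 1.12 log2, so the dimmer probe taken alone lay short of 2-fold. Hmox1, which degrades haem, went from 589 to 1023 units and was 2.07-fold higher, and it fell short of 2-fold in those 5 settings. Nfe2l2, the gene of NRF2 itself, differed by 0.21 log2 and its inhibitor Keap1 by 0.31 log2. Nfe2l1, a relative of NRF2, differed by 0.12 log2 and Srxn1, a sulfiredoxin, by 0.35 log2. Txnrd1, a thioredoxin reductase and likewise a target of NRF2, differed by -0.33 log2.

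**Figure D5:**
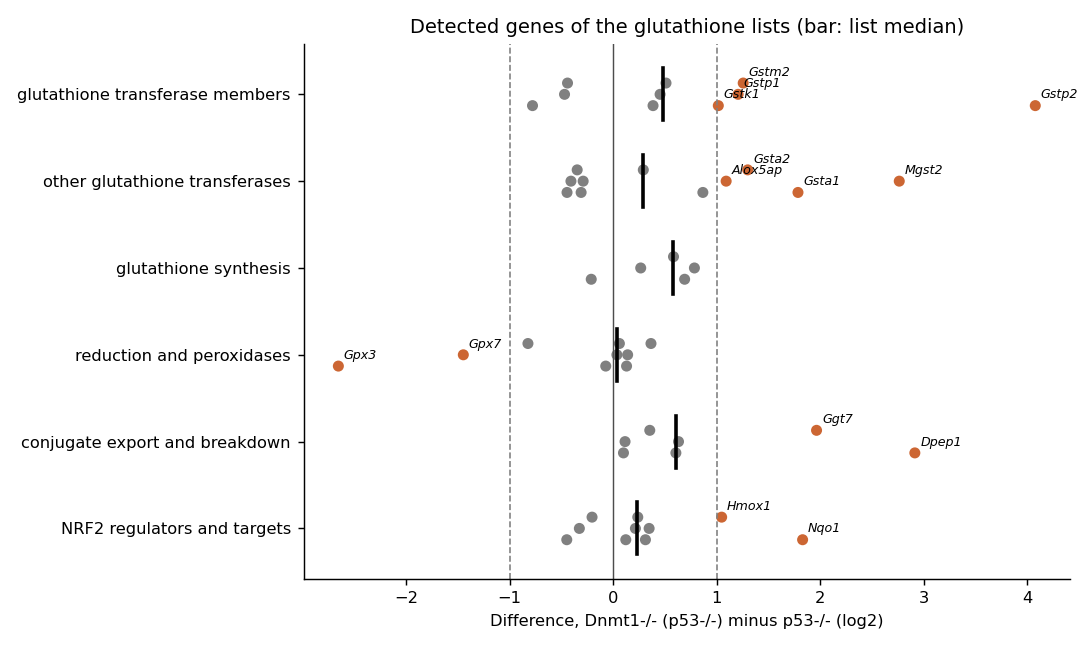
Difference (Dnmt1-null minus control, log2) of each detected gene of the 10 glutathione transferases and of 5 lists of related genes; orange points are past 2-fold (dashed lines) and black bars are list medians. Past 2-fold, genes are on the higher side in 4 groups, on the lower side in the reduction and peroxidase list, and absent from the synthesis list.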

How the data were processed

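Biotin-labelled RNA of each line was hybridised to Illumina bead arrays, per the labels' protocols. Per the file headers, the deposited probe intensity values were not normalized, and each carried a deposited detection p-value. How the scanner data were summarised is not given in the sources used here. The authors' processed intensity values, deposited separately, kept the rank order of the unprocessed signals (Spearman rho across probes 0.99998 and 0.99997), with column medians of 14.2 and 13.8. They thus ran in the same direction, and with a mean of 507 on the control array they were not log2 values. Their background and scaling method is unknown.

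The limma 3.58.1 function neqc (R 4.3.3) subtracted background using the detection p-values, with an offset of 16, and normalized by quantiles to log2 values. It was checked on simulated arrays with known differences put into bright probes only, so the check did not cover differences of dim probes. Of 25697 probes, 23978 had 1 gene symbol and the other 1719 did not, and 23962 matched a RefSeq gene of GRCm38.p6 by Entrez identifier. The probe with the highest mean level stood for a gene. A gene counted as higher or lower when its difference was 1 log2 or more and either array detected it. Where 1 array missed it, the fold is a bound against the higher of its own level there and the lowest level of any detected probe (5.57 log2 for the control, 5.66 log2 for the Dnmt1-null array). Groups of 1 array allow no test.

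The 10 genes and the lists were chosen with earlier results of these data known. Named besides them were Dnmt1 and, from each list, up to 4 genes past 2-fold and 2 detected genes of highest mean level. Other list members, flanking genes and markers were named after their values were seen. Alternatives varied the background step, offset, normalization, filter, probe choice and bound. Python 3.11.15, pandas 2.3.3 and matplotlib 3.10.9 made counts and plots.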

Additional observations from a re-analysis of the deposited data

How the results depend on the processing

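The count of 4 higher and 0 lower glutathione transferases was 3 higher under 4 of 10 alternatives and 4 under the others, with 0 lower in all 10. Gstk1 made the change, at 0.52 log2 without background correction, 0.81 log2 with neqc and an offset of 50, 0.72 log2 with normexp and an offset of 50, and 0.89 log2 under median scaling. The other 9 genes kept their sign and their side of 2-fold. Among related genes, 5 passed 2-fold without background correction, in place of 10, Gsta1 and Gpx7 were among those lost (0.62 and -0.95 log2), and Alox5ap and Gsta2 fell below it when undetected signals were set to their bound. Over all genes, 182 were higher and 133 lower without background correction, 272 and 206 with normexp and an offset of 50, against 429 and 355. With neqc and an offset of 50, 297 were higher and 233 lower. With the authors' processed values (463 higher and 568 lower) and under median scaling (395 and 427) lower genes outnumbered higher ones. The cause was not tested. Signal over background limits Gstp2 in the control, Gstk1, Mgst1 and Gstt1, which ran from -0.66 to -0.22 log2. No paired analysis was possible because each genotype had 1 array, and no replicate could be left out.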
